A study of Danio rerio with 7 samples.

Results

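The genes described here encode the platelet-derived growth factors (PDGFs) and their receptors, measured in lineage-labelled cells of the regenerating zebrafish heart. A gene ID was taken when its symbol in the supplied name table equalled one of 7 family names (PDGFRA, PDGFRB, pdgfrl, pdgfa, pdgfb, pdgfc and pdgfd) in any case, with or without a final paralog letter a or b. This gave 7 IDs of the 31388 in the table, namely PDGFRA, the receptor-like gene PDGFRL and 5 ligand IDs (PDGFA, pdgfba, pdgfbb, PDGFC and PDGFD). PDGFRB was not analysed here. The name table gives the symbol PDGFA to 3 IDs, of which the TPM table used here holds ENSDARG00000098578, and it does not say whether this ID is pdgfaa or pdgfab.

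PDGFs are secreted dimers that bring receptor tyrosine kinases together in pairs on the surface of mesenchymal cells. The A and C chains act through the alpha receptor, the B chain through both the alpha and the beta receptor, and the D chain mainly through the beta receptor. In the heart the alpha receptor is a usual mark of fibroblasts and the beta receptor of mural cells, while B chains come from endothelium and platelets. In zebrafish, PDGF signalling has been tied to epicardial cell proliferation and coronary vessel growth after injury.

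Cells came from adult zebrafish (Danio rerio) aged 3 to 9 months that carried postnb:CreERT2 and the reporter ubb:loxP-GFP-loxP-mCherry. All fish had a cryoinjury, a freezing wound of the ventricle, and an overnight bath in 10 µM 4-OHT at 3 and at 4 days post injury (dpi), so both groups share injury, transgenes and drug. The Cre is driven by postnb, a periostin gene of activated fibroblasts, so that mCherry marks cells in which this promoter was active around the bath, and their descendants. Sorted mCherry-positive cells of the ventricular apex were profiled as 4 pools at 7 dpi (replicates 1 to 4) and 3 pools at 60 dpi (replicates 1, 2 and 4), each from 3 to 5 hearts and 0.2 to 0.6 ng of RNA. Values are TPM, an abundance corrected for transcript length and scaled to the same sum in every library, so the sequencing depth behind a value is unknown. Pools are the replicates, and p-values set the difference between the groups against the spread between pools, which the test estimates partly from all genes.

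A 7 dpi library held 9844 to 15431 IDs at 1 TPM or more and a 60 dpi library 10840 to 14061, with the fewest in replicate 4 of each group. Fibroblast markers summed to 6648 to 9074 TPM at 7 dpi and 8059 to 9894 TPM at 60 dpi. Of 18 such markers tested, 5 were higher at 60 dpi and 2 were lower, beside 3.20% and 3.68% of all tested genes. Among the 5, the matrix genes DPT and mfap5 went from 306 ± 147 to 1361 ± 99.9 TPM (adjusted p = 0.00413) and from 81.5 ± 57.8 to 623 ± 75.3 TPM (0.0122), and DCN and 2 SFRP1 IDs were the others. The lower ones were an ID named POSTN and the FN1 ID ENSDARG00000019815 (514 ± 127 to 121 ± 55.5 TPM). The more abundant FN1 ID ENSDARG00000006526 had 2324 ± 338 and 1561 ± 263 TPM and did not pass (limma adjusted p = 0.179). The pericyte markers rgs5b and RGS5 were higher as well (2 of 16 tested on their list, with 0 passing as lower). On that list the groups did not overlap for 5 IDs as higher and for 2 as lower (10.3% and 11.0% of all tested genes). The 2 were the smooth muscle markers MYH11 (ENSDARG00000009782, means of 68.8 and 25.4 TPM) and TAGLN (ENSDARG00000045408, 288 and 88.7 TPM). Another TAGLN ID (ENSDARG00000033466, means of 256 and 381 TPM) was among the 5 higher, so the TAGLN IDs went both ways. In these sorted pools, macrophage and leukocyte markers also summed to 8504 to 11426 TPM at 7 dpi and to 2413 to 5161 TPM at 60 dpi. Of 19 such markers tested, 15 were lower at 60 dpi and none was higher. No ID of that list was at 0 in all 7 dpi pools, and at 60 dpi tyrobp and an ID named MPEG1 were. Cardiomyocyte markers summed to 410 to 950 TPM at 7 dpi and to 426, 5082 and 3784 TPM in replicates 1, 2 and 4 at 60 dpi, with 2 of 17 tested higher. The part of these other cell types in the results below was not tested.

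**Figure D1:**
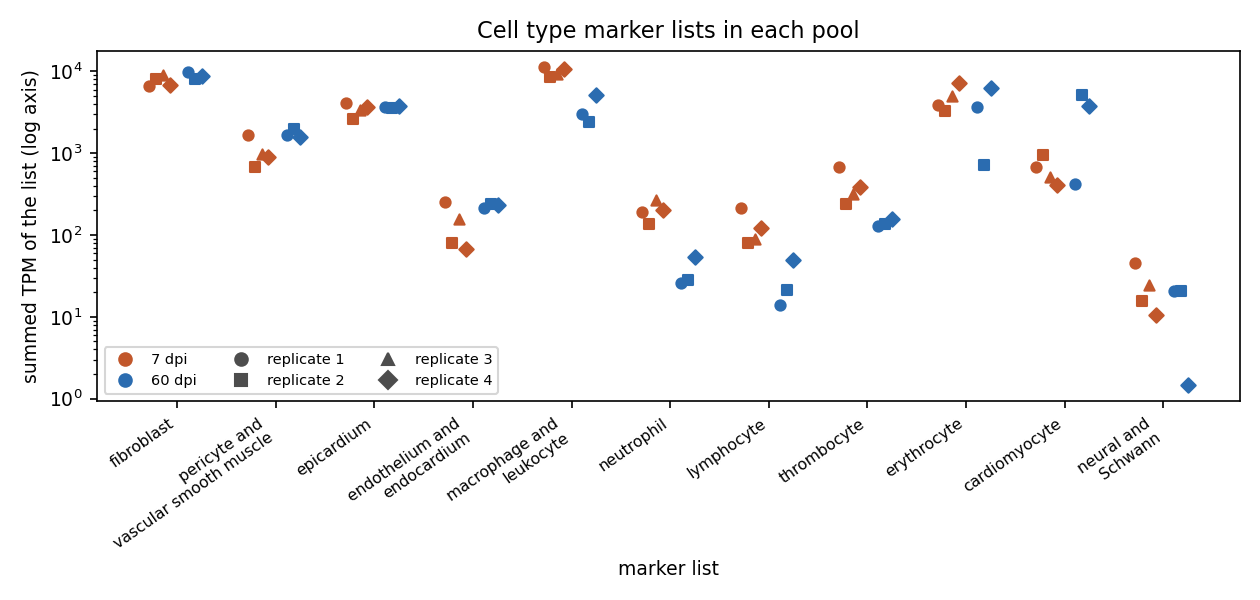
Summed TPM (log axis) of each cell type marker list in the 4 pools at 7 dpi (orange) and the 3 pools at 60 dpi (blue), with 1 point per pool and the shape giving the replicate number. Macrophage and leukocyte markers lie between 8504 and 11426 TPM at 7 dpi and between 2413 and 5161 TPM at 60 dpi, while the fibroblast sums of the groups overlap.

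Transcripts of PDGFRA and of the receptor-like gene PDGFRL were higher at 60 dpi, and no ligand passed the test. With limma on log2(TPM + 1), 6 of the 7 IDs were tested, since PDGFC did not reach 1 TPM in 3 libraries. PDGFRA and PDGFRL rose, none fell and 4 did not pass a Benjamini-Hochberg adjusted p of 0.05. Among all 15130 genes tested, 6.88% passed, 3.20% as higher and 3.68% as lower at 60 dpi. PDGFRA and PDGFRL were also the members in which every 60 dpi pool lay above every 7 dpi pool, a state of 10.3% of all tested genes (11.0% in the other direction, 21.3% in all). At an unadjusted p under 0.05, 4 of the 6 differed, with PDGFA and PDGFD as the other 2, while 22.0% of all tested genes did (3333 IDs). For the 6, the median log2 fold change was -0.12, beside -0.04 for all tested genes. In pools of sorted cells, fewer cells of a type and less RNA per cell cannot be told apart.

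**Figure D2:**
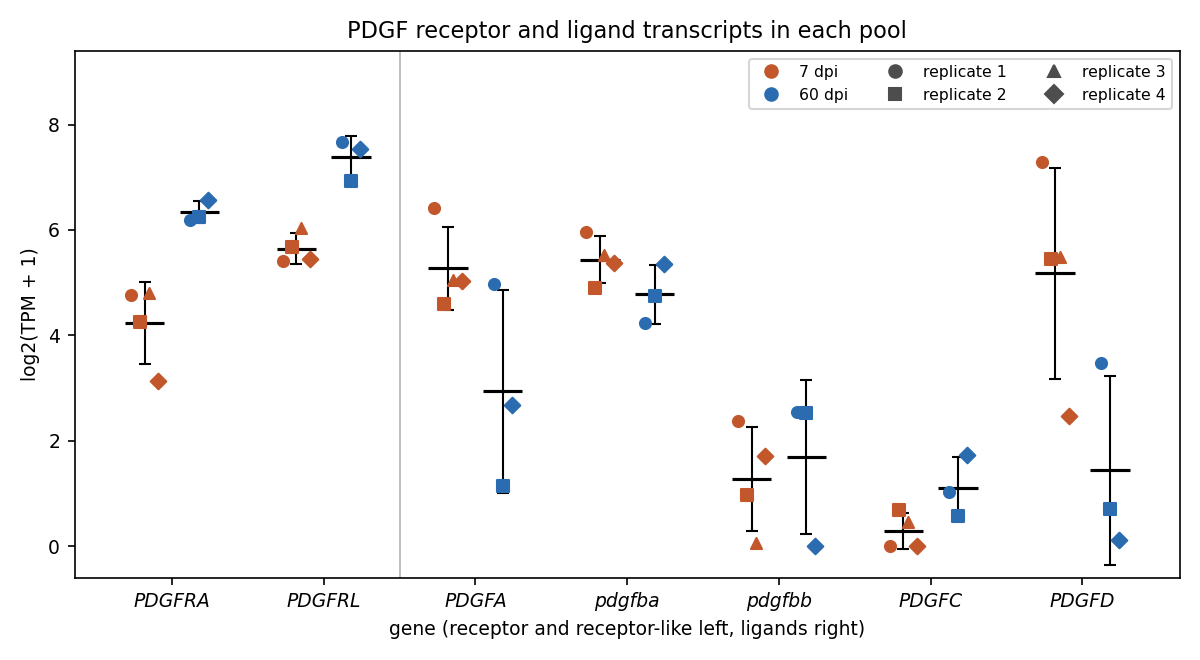
Level of each gene as log2(TPM + 1) in the 4 pools at 7 dpi (orange) and the 3 pools at 60 dpi (blue), with 1 point per pool and bars for the mean and SD. For PDGFRA and PDGFRL all 60 dpi pools lie above all 7 dpi pools, and for the 5 ligand IDs the groups overlap.

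The order of the mean levels differed between the time points. At 7 dpi the highest mean was that of PDGFD (61.9 ± 65.6 TPM, SD, n = 4), then PDGFRL (49.7 ± 10.8), pdgfba (43.9 ± 13.6), PDGFA (42.8 ± 27.8), PDGFRA (19.7 ± 8.91), pdgfbb (1.86 ± 1.79) and PDGFC (0.245 ± 0.297 TPM). The ranges of the first 4 overlapped, and that of PDGFRA overlapped with PDGFA but lay below pdgfba and above pdgfbb. At 60 dpi PDGFRL came first (170 ± 43.3 TPM, SD, n = 3), then PDGFRA (80.4 ± 12.0), pdgfba (27.8 ± 11.3), PDGFA (12.4 ± 15.9), PDGFD (3.63 ± 5.68), pdgfbb (3.20 ± 2.77) and PDGFC (1.28 ± 0.933 TPM). There the ranges of PDGFRL, PDGFRA and pdgfba did not overlap, whereas those of neighbours from pdgfba downward did.

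PDGFRA (ENSDARG00000070494) encodes the alpha receptor, a tyrosine kinase that binds A, B and C chains. It was measured at 26.2, 18.1, 26.8 and 7.73 TPM in replicates 1 to 4 at 7 dpi, and at 72.0, 75.0 and 94.1 TPM in replicates 1, 2 and 4 at 60 dpi. The groups did not overlap, with the lowest 7 dpi value in replicate 4, the library with the fewest detected IDs. The ratio of the means was 4.08 on a linear scale and 2.10 ± 0.48 as a log2 fold change (SE, 95% interval 1.05 to 3.15, limma adjusted p = 0.0226). Among all IDs of a library, PDGFRA stood at the 77.7th to 90.7th percentile at 7 dpi and at the 96.0th to 96.3rd at 60 dpi. The fold change stayed between 1.61 and 2.29 in 19 other settings, and 11 of them kept the call. The losses included the settings without 7 dpi replicate 2 (adjusted p = 0.0518) or 60 dpi replicate 1, 2 or 4 (0.0566, 0.0668 and 0.0707), with no TPM minimum (0.05001), without the variance trend (0.0845) and with scaling to fibroblast markers (0.0872, log2 fold change 1.69).

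PDGFRL (ENSDARG00000006456) encodes a protein that resembles the extracellular part of a PDGF receptor and has no kinase domain. Its levels were 41.4, 49.9, 64.9 and 42.8 TPM in the 7 dpi pools and 204, 121 and 184 TPM in the 60 dpi pools. All 60 dpi values lay above all 7 dpi values, and it was the most abundant family member at 60 dpi in each of the 3 pools. The ratio of the means was 3.41, or 1.74 ± 0.34 on the log2 scale (SE, 95% interval 0.996 to 2.48, limma adjusted p = 0.0113). The call held in 16 of 19 other settings, including each with 1 library left out. The losses included the settings without the variance trend (adjusted p = 0.0897) and with scaling to fibroblast markers (0.0740, log2 fold change 1.32).

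PDGFRA and PDGFRL were also set against type I collagen, the main fibrillar collagen of fibroblasts (3 IDs summed), a ratio chosen after their values were seen. Per 1000 TPM of type I collagen, PDGFRL came to 25.8, 22.8, 25.3 and 22.9 TPM in the 7 dpi pools and 61.7, 59.5 and 62.9 TPM in the 60 dpi pools. The pools of a group lay close together on this ratio, at 24.2 ± 1.56 (SD, n = 4) and 61.4 ± 1.76 (SD, n = 3). PDGFRA had 16.3, 8.29, 10.4 and 4.14 TPM per 1000 TPM of type I collagen at 7 dpi, and 21.8, 36.9 and 32.1 TPM at 60 dpi. Its spread was wider, and the groups again did not overlap. PDGFRL exceeded PDGFRA in every pool, by 1.58, 2.75, 2.43 and 5.54 times at 7 dpi and by 2.83, 1.61 and 1.96 times at 60 dpi, so this ratio overlapped between the groups.

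**Figure D3:**
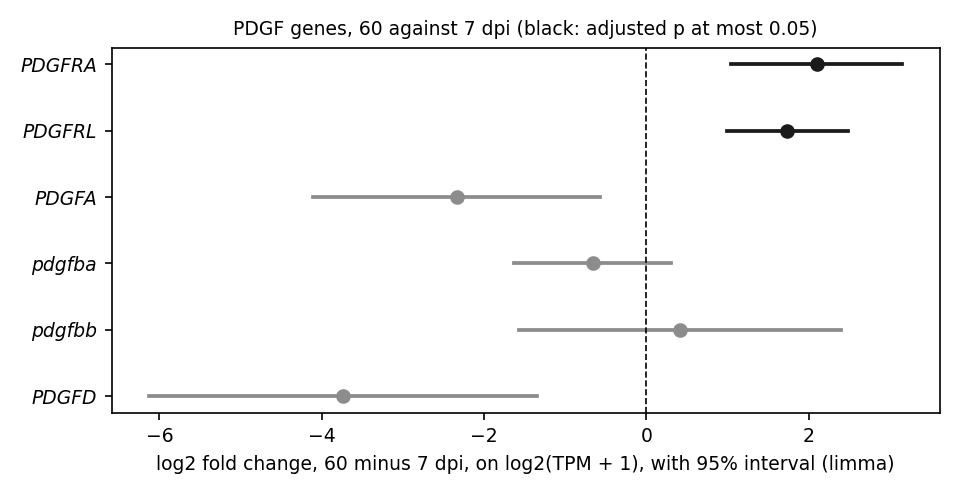
Log2 fold change (60 minus 7 dpi, on the log2(TPM + 1) scale) of the 6 tested genes, with points for the limma estimate and bars for the 95% interval, black where the adjusted p was at most 0.05. PDGFRA (2.10) and PDGFRL (1.74) are black, and the widest interval is that of PDGFD (-6.13 to -1.35).

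Among the ligands, PDGFD (ENSDARG00000077677) had the widest spread. It encodes a chain with a CUB domain that must be cut off by a protease before it can bind. It was measured at 156, 42.8, 43.8 and 4.51 TPM at 7 dpi, and at 10.2, 0.63 and 0.09 TPM at 60 dpi. Replicate 1 was the highest pool of each group, and the 7 dpi replicate 4 lay below the 60 dpi replicate 1, so the groups overlapped. The log2 fold change was -3.74 ± 1.10 (SE, 95% interval -6.13 to -1.35), and the limma adjusted p of 0.0637 missed the threshold. PDGFD passed as lower in 7 of 19 other settings, among them without 7 dpi replicate 4 (adjusted p = 0.0234), without 60 dpi replicate 1 (0.0351), without replicate 4 of both groups (0.0326) and with scaling to fibroblast markers (0.0288). The adjusted p ranged from 0.0121 to 0.178 over the 19 settings.

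PDGFA (ENSDARG00000098578) encodes an A chain, the ligand that binds the alpha receptor. The 7 dpi pools had 83.9, 23.0, 32.4 and 31.8 TPM, and the 60 dpi pools 30.6, 1.22 and 5.38 TPM. Replicate 1 was again the highest of its group at both times, and the 60 dpi replicate 1 lay within the 7 dpi range. The log2 fold change was -2.34 ± 0.81 (SE, 95% interval -4.11 to -0.57, limma adjusted p = 0.114), which did not pass. Without the 60 dpi replicate 1 it was -3.36 with an adjusted p of 0.0249, the setting in which PDGFA passed. Without the 60 dpi replicate 2 it was -1.44 (adjusted p = 0.302). These were the ends of its range over all 19 settings, for the fold change and for the adjusted p.

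Replicate 1 at 7 dpi, highest for both of these ligands, also had the highest sums of several marker lists within its group. Its thrombocyte markers summed to 684 TPM (239 to 388 TPM in the other 7 dpi pools), its pericyte and smooth muscle markers to 1682 TPM (677 to 970 TPM) and its endothelial markers to 250 TPM (67.4 to 155 TPM). The same pool had the highest macrophage and leukocyte sum at 7 dpi (11426 TPM, 8504 to 10630 TPM in the others). It was also the highest 7 dpi pool for epicardial (4164 TPM), lymphocyte (212 TPM) and neural and Schwann markers (45.5 TPM). The ligands pdgfba and pdgfbb were highest in this pool at 7 dpi as well (61.6 and 4.17 TPM). Its fibroblast sum was the lowest at 7 dpi (6648 TPM), and other pools were highest for neutrophil, erythrocyte and cardiomyocyte markers. At 60 dpi the thrombocyte sums were 130 to 156 TPM, and 4 of 10 tested thrombocyte markers were lower (3.68% of all tested genes). Replicate 1, again highest for both ligands at 60 dpi, had the lowest thrombocyte and endothelial sums there (130 and 212 TPM). Most of that thrombocyte sum came from THBS1 (70.6 TPM) and the FERMT3 ID ENSDARG00000030938 (31.4 TPM). Other thrombocyte markers went both ways in the 60 dpi replicates 1, 2 and 4. In replicate 1 itga2b was highest (4.59, 0 and 0.53 TPM) and GP1BB lowest (4.41, 12.1 and 7.91 TPM). The endothelial sums at 60 dpi, 212 to 239 TPM, lay above those of the 7 dpi replicates 2 to 4, and the pericyte and smooth muscle sums were 1597 to 1971 TPM. None of 17 tested endothelial markers passed (4 at an unadjusted p under 0.05, near the 22.0% of all tested genes). Of 16 pericyte and smooth muscle markers, 2 were higher (3.20% of all tested genes). Thrombocytes, the nucleated fish counterpart of platelets, and endothelium are known sources of PDGF ligands. Whether these cells had a part in the ligand levels was not tested.

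The B chain gene pdgfba (ENSDARG00000086778) was detected in every pool. The 7 dpi pools had 61.6, 28.8, 44.8 and 40.3 TPM, and the 60 dpi pools 17.8, 25.7 and 40.0 TPM. The groups overlapped, and the log2 fold change of -0.66 ± 0.45 (SE, 95% interval -1.63 to 0.31, limma adjusted p = 0.426) did not pass in any of 19 other settings. Its interval includes a decrease of more than 2-fold, so the data do not show that the levels were equal. The paralog pdgfbb (ENSDARG00000038139) was measured at 4.17, 0.95, 0.04 and 2.27 TPM at 7 dpi and at 4.84, 4.76 and 0 TPM at 60 dpi. Its log2 fold change was 0.42 ± 0.91 (SE, limma adjusted p = 0.850), and the sign turned without either 60 dpi replicate 1 or 2. Because the authors' counting shares reads among similar transcripts, the split between the paralogs is uncertain.

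PDGFC (ENSDARG00000077588) encodes the other CUB-domain chain, a ligand of the alpha receptor. It was close to the floor in all pools, with 0, 0.60, 0.38 and 0 TPM in the 7 dpi pools and 1.04, 0.49 and 2.31 TPM in the 60 dpi pools. The groups overlapped, and with so little RNA as input a listed 0 need not mean absence.

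Summed over the 5 IDs, ligand transcripts came to 306, 96.2, 121 and 78.9 TPM at 7 dpi and to 64.5, 32.8 and 47.8 TPM at 60 dpi. The lowest 7 dpi sum exceeded the highest 60 dpi sum, with means of 151 ± 105 TPM (SD, n = 4) early and 48.4 ± 15.8 TPM (SD, n = 3) late. The make-up of the sum varied between pools. PDGFD gave 51.1, 44.5, 36.1 and 5.72% of it at 7 dpi and 15.8, 1.92 and 0.188% at 60 dpi. The share of pdgfba was 20.1, 29.9, 36.9 and 51.1% at 7 dpi and 27.6, 78.4 and 83.7% at 60 dpi, so that it was the largest ligand share in replicates 2 and 4 at 60 dpi and PDGFA (47.5%) in replicate 1. Per TPM of PDGFRA there were 11.7, 5.30, 4.54 and 10.2 TPM of summed ligand at 7 dpi and 0.895, 0.437 and 0.508 TPM at 60 dpi. Every 7 dpi pool thus held more ligand than PDGFRA transcripts, and every 60 dpi pool fewer. The sum includes PDGFD, whose chain acts mainly through the beta receptor, and lacks the other IDs named PDGFA, and PDGFRB was not analysed. These sums and ratios were chosen after the values were seen and are given without a test.

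**Figure D4:**
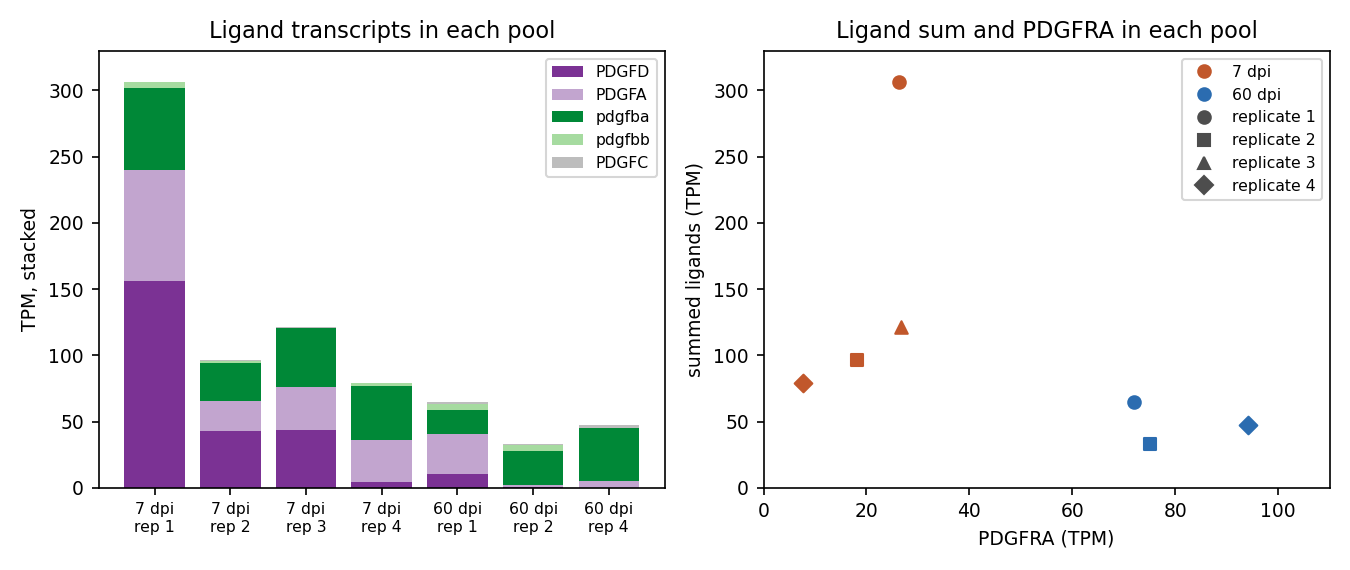
Left, TPM of the 5 ligand IDs stacked for each pool, where replicate 1 at 7 dpi is highest with 306 TPM. Right, summed ligand TPM against PDGFRA TPM, 1 point per pool (7 dpi orange, 60 dpi blue, shape for the replicate number), where the 7 dpi pools lie at low PDGFRA and 78.9 to 306 TPM of ligand and the 60 dpi pools at high PDGFRA and 32.8 to 64.5 TPM of ligand.

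Genes that mature or bind PDGF ligands did not pass the test. Of 15 tested with limma, none rose or fell (3 at an unadjusted p under 0.05, near the 22.0% of all tested genes), and the median log2 fold change was 0.31. SPARC, the most abundant, encodes a matrix protein that binds B chains and went from a mean of 891 ± 90.3 to 1217 ± 291 TPM, a difference that missed the threshold (adjusted p = 0.355). PLAT, the tissue plasminogen activator gene whose product activates the C chain, had 22.5 ± 16.5 and 59.9 ± 35.7 TPM (adjusted p = 0.271). A urokinase gene, plaua, whose product activates the D chain in mammals, had 68.6 ± 41.8 and 27.6 ± 16.4 TPM (adjusted p = 0.242). PLAT and plaua were chosen for their role after their values were seen.

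Of 49 tested adaptors and effectors of the receptors, 5 fell and none rose, beside 3.68% and 3.20% of all tested genes. The list had a median log2 fold change of -0.09 and 16 genes at an unadjusted p under 0.05 (22.0% over all tested genes). The adaptor gene grb2b, which links receptors to Ras, fell by 2.31 ± 0.38 on the log2 scale (SE, limma adjusted p = 0.00493), with means of 208 ± 76.7 TPM early (SD, n = 4) and 40.2 ± 11.4 TPM late (SD, n = 3). The adaptor ID NCK1 (ENSDARG00000075369) fell from 114 ± 34.0 to 33.7 ± 13.1 TPM (adjusted p = 0.0214). PIK3CB, a catalytic subunit of phosphoinositide 3-kinase, fell from 44.6 ± 16.6 to 10.3 ± 4.07 TPM (adjusted p = 0.0341). The kinase gene SRC fell from 43.8 ± 16.5 to 10.1 ± 6.08 TPM (adjusted p = 0.0430). The fifth, vav3a, a guanine nucleotide exchange factor gene, fell from 75.0 ± 26.8 to 12.4 ± 10.7 TPM (adjusted p = 0.0454) and was named after its values were seen. Of 19 other settings, grb2b kept the call in 18, NCK1 in 14, vav3a in 11, PIK3CB in 10 and SRC in 8. SRC lost it without any 1 library other than 60 dpi replicate 1 (adjusted p up to 0.134), and PIK3CB without any 1 other than 60 dpi replicate 4 (up to 0.104). vav3a lost it without any 1 of the 7 dpi libraries (0.0776 to 0.105), and NCK1 without 7 dpi replicate 1 (0.0538) or 60 dpi replicate 4 (0.0591). RAC1 (ENSDARG00000087954), the most abundant member, had 158 ± 55.1 and 178 ± 36.2 TPM (adjusted p = 0.773). Leukocytes also use these signalling genes, and 15 of 19 leukocyte markers were lower in the same libraries, but their part in these counts was not tested. The count of 5 was 2 or fewer without 7 dpi replicate 1, 2, 3 or 4 (1, 2, 2 and 2), and 3 without 60 dpi replicate 2 or 4 or without replicate 4 of both groups. It was 0 without the variance trend, 1 with the replicate number as a block (6 libraries) and 2 with no TPM minimum.

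Among 22 tested genes that dampen receptor signalling, 3 were higher and 1 was lower at 60 dpi, beside 3.20% and 3.68% of all tested genes. The list had a median log2 fold change of 0.08 and 9 genes at an unadjusted p under 0.05 (22.0% over all tested genes). SPRY4, a Sprouty inhibitor of the Ras and MAP kinase route, rose from 18.9 ± 14.3 to 113 ± 37.7 TPM (log2 fold change 2.72 ± 0.55, SE, limma adjusted p = 0.0129). DUSP6, a phosphatase gene that is induced by ERK and inactivates it, rose from 28.6 ± 16.7 to 127 ± 56.3 TPM (adjusted p = 0.0296). SOCS3 (ENSDARG00000026611), an inhibitor of JAK kinases, rose from 75.4 ± 7.42 to 283 ± 66.7 TPM (adjusted p = 0.00390). The receptor phosphatase gene ptprja fell by 4.48 ± 0.55 on the log2 scale (SE, limma adjusted p = 0.000948), with means of 47.6 ± 2.01 and 1.23 ± 0.500 TPM, and passed in all 19 other settings. Its mammalian counterpart acts on PDGF receptors and is also found on blood cells. SOCS3 (ENSDARG00000026611) kept the call in 18 of the 19, SPRY4 in 15 and DUSP6 in 10. SPRY4 lost it without 60 dpi replicate 1 (adjusted p = 0.0519) or 2 (0.0509), and DUSP6 without 7 dpi replicate 2 (0.0631) or 3 (0.0532) or 60 dpi replicate 1 (0.0708) or 4 (0.104). DUSP1, the most abundant member, had 168 ± 53.7 and 221 ± 74.7 TPM (adjusted p = 0.577). The number that rose was 1 without 60 dpi replicate 1 and 2 without 7 dpi replicate 2 or 3 or 60 dpi replicate 2 or 4. It was 0 without the variance trend, 1 with the replicate number as a block (6 libraries) and 2 with no TPM minimum.

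Of 15 tested genes of the other class III receptor kinases, the related VEGF receptors and their ligands, 1 rose and 1 fell. Over all tested genes, 3.20% rose and 3.68% fell. The list had a median log2 fold change of 0.22 and 5 genes at an unadjusted p under 0.05, beside 22.0% of all tested genes. csf1ra, the CSF1 receptor gene of macrophages and a family relative of the PDGF receptors, fell from 90.6 ± 28.2 to 13.7 ± 3.02 TPM (log2 fold change -2.60 ± 0.41, SE, limma adjusted p = 0.00427). Its paralog csf1rb had 15.7 and 13.8 TPM on average (adjusted p = 0.921). VEGFA (ENSDARG00000103542), a vascular growth factor of the wider PDGF and VEGF family, rose from 9.07 ± 3.75 to 62.8 ± 15.4 TPM (adjusted p = 0.00888). Both calls held in all 19 other settings. Another VEGFA ID on the list (ENSDARG00000034700) was not among the genes that passed. kitb, a gene for another class III receptor, had 33.4 TPM on average at both times (adjusted p = 0.955); it and csf1rb were named after their values were seen.

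Other genes with a like pattern were sought by the root mean square difference of log2(TPM + 1), centred on each gene's mean, over the 7 libraries. For PDGFRA the closest were rexo1 (0.14), rgs3a (0.16), h2ax1 (0.19) and RGCC (0.19). The gene rgs3a, for example, stood at 23.1, 16.8, 25.5 and 8.73 TPM in the 7 dpi pools and 69.8, 59.5 and 74.4 TPM in the 60 dpi pools, also lowest in 7 dpi replicate 4. For PDGFRL they were NOTCH1 (ENSDARG00000052094, 0.21), PDLIM5 (0.22), RASGEF1B (0.22) and FGFR3 (0.23). The 7 dpi means of rexo1 and FGFR3 were low (1.4 and 2.2 TPM), so the added 1 TPM weighs on their differences. PDGFRA and PDGFRL differed from each other by 0.54 on this measure, less than any other pair of tested family members (1.31 to 3.19).

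The ligands had other near neighbours. For PDGFA they were IRF2BP2 (0.25), ARPC3 (0.39), VPS26B (0.43) and ZDHHC13 (0.44), and IRF2BP2 had 70.1 TPM in 7 dpi replicate 1 against 15.7 to 18.3 TPM in the other 7 dpi pools. The closest to pdgfba were zgc:153867, sdcbp2, atp6v1e1a and ALDOA (0.13 to 0.15). The nearest to PDGFD were ADM (0.66), MFSD1 (0.68), si:dkey-74i2.2 (0.72) and si:ch1073-39g8.1 (0.73). The measure is not scaled to a gene's spread, which was widest for PDGFD among the ligands. Its larger differences thus need not mean that these genes follow it less closely. ADM, the adrenomedullin gene, had 191 TPM in 7 dpi replicate 1 and 17.6 TPM in 60 dpi replicate 1, again the highest pool of each group. These are descriptions over 7 libraries that share the step between time points.

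**Figure D5:**
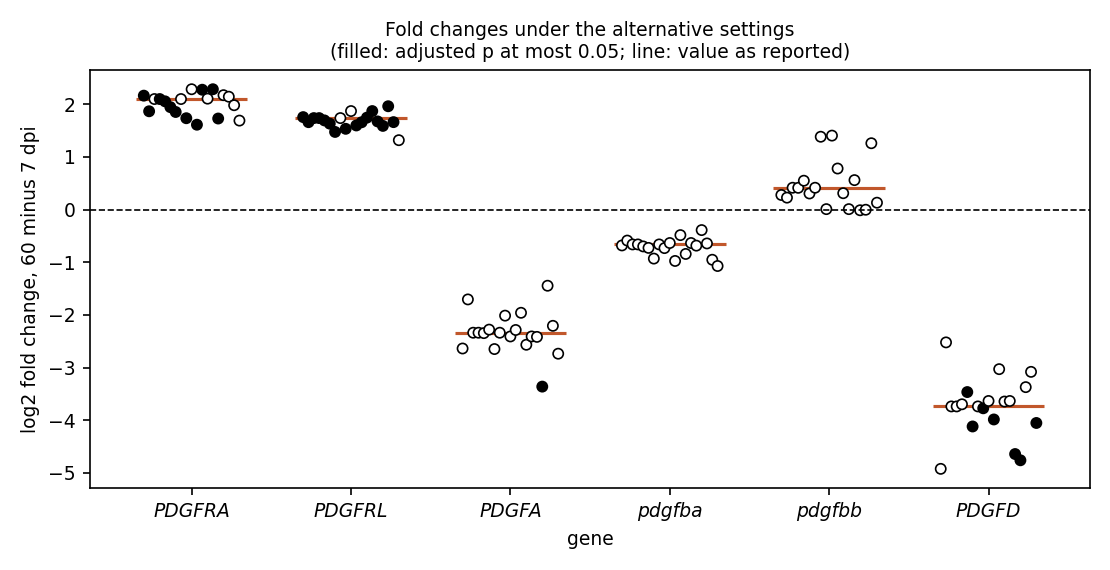
Log2 fold change (60 minus 7 dpi) of each tested gene under the alternative settings, 1 point per setting, filled where the adjusted p was at most 0.05, with the reported value as a line. PDGFRA stays between 1.61 and 2.29 and PDGFRL between 1.32 and 1.96, while PDGFD ranges from -4.92 to -2.52 with 7 filled points of 19.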

How the data were processed

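The authors deposited TPM values in 1 table (31388 gene IDs, 7 libraries). They used CASAVA 1.8.2, cutadapt, RSEM 1.2.25 and build Zv9, per the submitters' processing notes, and the aligner and annotation release are not given in the sources used here. The labels' protocols name an amplifying single-cell kit and a TruSeq kit, with reads of 60 nt. RSEM shares reads among similar transcripts, and TPM keeps no depth.

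Symbols came from the supplied name table (25925 IDs, 82.6%). IDs without a symbol took 20.2, 40.0, 33.8 and 30.6% of the summed TPM in 7 dpi replicates 1 to 4. In 60 dpi replicates 1, 2 and 4 they took 19.2, 17.2 and 15.8%. Genes with at least 1 TPM in at least 3 libraries were fitted with limma 3.58.1 in R 4.3.3 on log2(TPM + 1), which understates changes of low genes, with time point as the term, a mean-variance trend and two-sided Benjamini-Hochberg adjustment over all 15130 genes at 0.05. The fit was tested on simulated data. Tables and figures were made with pandas 2.3.3, matplotlib 3.10.9 and numpy 2.4.6 in Python 3.11.15. Of 83 entries in 4 pathway lists 78 were found. The members, lists and rules were chosen with earlier results of these data known. Named were all members, up to 4 passing genes and the most abundant gene per pathway list, and the 4 nearest patterns of members that averaged 10 TPM or more in a group. LRP1B and GFI1B were left out of the matches of LRP1 and GFI1, as genes of their own. The counts of calls and the fold changes of the tested members and of the pathway genes named by the rule, and of vav3a, were recomputed under 18 other settings listed beforehand and 1 chosen after seeing the data (pdgfbb under 18 in all, since a higher TPM minimum removed it). Sums, ratios, percentiles and nearest patterns were not.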

Additional observations from a re-analysis of the deposited data

Results flagged for a closer look

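In replicate 1 at 7 dpi, PDGFA had 83.9 TPM, and its gap to the nearest pool was 0.847 of the range of the 4 pools, above the critical value of 0.829 of Dixon's test. Of 43 groups of 4 pools checked this was the 1 exceeding it, and chance alone flags about 1 in 20.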

How the results depend on the processing

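The directions of PDGFRA, PDGFRL, PDGFA, pdgfba and PDGFD held in all 19 alternatives. The number of family members past the threshold, 2 as reported, was 0 without the variance trend and 1 (PDGFRL) with no TPM minimum. It was 1 to 3 when leaving out 1 library. Without 60 dpi replicate 1 the 3 were PDGFRL as higher and PDGFA and PDGFD as lower, with PDGFRA lost. With scaling to fibroblast markers (chosen after seeing the data) it was 1, PDGFD as lower, and neither PDGFRA nor PDGFRL passed. The cause was not tested. Leaving out replicate 4 of both groups gave 3, with PDGFRA and PDGFRL as higher and PDGFD as lower. The genes past the threshold, 1041 as reported, were 596 with no TPM minimum, 477 without the trend, 1659 with array weights and 581 to 1181 when leaving out 1 library. The pathway genes past it, 11 as reported, were 7 with no TPM minimum, 3 without the trend, 17 with TPM rescaled over IDs with a symbol and 7 to 10 when leaving out 1 library. pdgfbb ran from -0.012 (60 dpi replicate 1 left out) to 1.26 when leaving out 1 library, and was -0.0019 when 60 dpi replicate 2 was left out.

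SPARC turned to -0.12 with quantile normalization and -0.00023 with fibroblast scaling. RAC1 turned to -0.045 with symbol-based scaling and -0.20 with fibroblast scaling and ran from -0.0064 (7 dpi replicate 2 left out) to 0.38 when leaving out 1 library, and DUSP1 turned to -0.032 with the latter. Symbol-based and fibroblast scaling moved the median log2 fold change of all genes to -0.26 and -0.34, and relative to it PDGFRA was at 2.12 and 2.03 and PDGFRL at 1.74 and 1.66. The share of calls that were higher, 46.5% as reported, was 31.6% and 21.8% with these scalings. With symbol-based scaling the log2 fold changes themselves were 1.85 for PDGFRA and 1.48 for PDGFRL (limma adjusted p = 0.0326 and 0.0197).

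With the replicate number as a block over the pools sharing one (6 libraries), 347 genes, 0 family members and 5 pathway genes passed. PDGFRA and PDGFRL had adjusted p of 0.0701 and 0.0590. The deviations of pools from their group mean had r = 0.0054, 0.0145 and 0.0280 across genes for pools with the same number. For pools with different numbers r was -0.0237 to 0.0190. With 3 or 4 pools in a group, these values cannot decide whether the numbers pair the samples. Since read depth is unknown, values near 0 TPM (PDGFC, pdgfbb) carry little information.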
